A study of Mus musculus with 6 samples.

Results

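The 10 genes described here belong to the Notch pathway: the receptors Notch1 and Notch2, the ligands Dll1, Dll3 and Jag1, the fringe glycosyltransferase Mfng, and the basic helix-loop-helix factors Hes1, Hes5, Hes6 and Hey1. They were chosen by name and matched by symbol to the deposited table, in which all 10 of them were found among 33084 gene identifiers and all 10 passed the low-count filter that left 19403 genes. RNA was sequenced from mouse forebrain dissected at embryonic day 15.5, from 3 heterozygous Dyrk1a mutants (Dyrk1a+/-, called heterozygotes) and 3 wild types (wt). Dyrk1a encodes a dual-specificity kinase; the contrast of the genotypes shows how its heterozygous loss goes with the levels of these transcripts. The labels give neither strain, sex nor treatment, do not say which part of Dyrk1a is disrupted, and call the libraries biological replicates.

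Notch is a receptor that is cut after it binds a ligand on a neighbouring cell, which frees its intracellular domain to join the DNA-binding protein RBPJ and the Mastermind coactivators in the nucleus. In the embryonic forebrain the best known outcome is expression of Hes1 and Hes5, repressors that hold back proneural genes and keep radial glia as progenitors, while cells that raise proneural factors present Delta ligands to their neighbours. Hes6 is known as an antagonist of Hes1 that is expressed in cells committed to a neuronal fate, and Dll3 as a ligand-like protein that acts within its own cell.

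The 250 bases before the start of 3 of the genes (RefSeq, GRCm38.p6) are shown because they hold the motifs through which Notch and proneural factors are known to act. In Hes5 (plus strand, chr4:154960673-154960922) capitals mark the RBPJ motif GTGGGAA, searched on both strands. In Hes6 (minus strand, chr1:91414039-91414288) and in Dll1 (minus strand, the more 5′ of 2 windows, chr17:15376933-15377182), a ligand gene known as a target of proneural factors, capitals mark the E-box CANNTG, the class of site that proneural factors bind.
Hes5: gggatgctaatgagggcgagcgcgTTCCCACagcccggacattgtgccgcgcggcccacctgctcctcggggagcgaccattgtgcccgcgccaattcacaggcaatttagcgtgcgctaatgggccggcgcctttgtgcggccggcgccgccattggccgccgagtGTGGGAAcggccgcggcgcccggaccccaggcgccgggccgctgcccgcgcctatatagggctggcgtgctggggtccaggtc
Hes6: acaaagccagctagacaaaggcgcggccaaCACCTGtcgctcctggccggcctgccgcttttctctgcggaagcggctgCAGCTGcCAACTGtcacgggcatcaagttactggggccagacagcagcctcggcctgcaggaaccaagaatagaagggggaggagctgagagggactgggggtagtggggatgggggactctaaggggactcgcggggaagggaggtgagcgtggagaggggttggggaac
Dll1: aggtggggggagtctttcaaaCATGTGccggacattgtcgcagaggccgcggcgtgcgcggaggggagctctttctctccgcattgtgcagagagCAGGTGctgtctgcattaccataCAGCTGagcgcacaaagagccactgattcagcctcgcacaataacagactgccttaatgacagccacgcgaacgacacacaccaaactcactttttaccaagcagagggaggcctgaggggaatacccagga
The Hes5 window held 2 RBPJ motifs, at 226 bases before the start on the opposite strand and at 83 bases before it as written. Of all 32851 promoter windows of 300 bases, 6.38% held at least 1 such motif and 0.256% held at least 2. No RBPJ motif was found in the windows of Notch1, Notch2, Dll1, Dll3, Jag1 or Hes6. For Hes1, Hey1 and Mfng no window was at hand, so these genes were not searched for any motif. The printed Hes6 window held 3 E-boxes and the printed Dll1 window 3. The other window of each of these genes, not printed, held 1. The Dll3 window held 2 E-boxes and those of Jag1 and Hes5 held 1 each, which is not marked in the printed Hes5 sequence. Those of Notch1 and Notch2 held 0. Of all windows 72.3% held at least 1 E-box and 39.6% at least 2. The motif CACNAG (the N-box bound by HES proteins), also read on both strands, was at 3 places in the Notch1 window, 2 of them overlapping, and at none in that of Hes5, where 42.5% of all windows held 1 or more.

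Library totals ran from 18699434 to 25012356 counts in heterozygotes and from 25270710 to 32865708 in wt. A pair of libraries, heterozygote replicate 2 and wt replicate 3, held 4.0% and 4.46% of their counts in 3 small structured RNAs (7SK and the RNA parts of RNase P and RNase MRP), against 2.57% to 3.01% in the 4 others. For this reason log2 differences are also given for the pair alone and for the other 4 alone. Values are CPM, counts scaled to a library of 1000000 after TMM scaling. Emx1, which marks the dorsal telencephalon, was at 29.3 ± 4.22 CPM in heterozygotes and 26.0 ± 5.01 CPM in wt (SD, n = 3 each), while the hindbrain and spinal gene Hoxb4 had 3 counts in all libraries together. Dyrk1a, the targeted gene, was at 149, 147 and 158 CPM in heterozygotes and 177, 186 and 160 CPM in wt. Its groups did not overlap, and heterozygotes lay below wt without overlap in 7.49% of all genes tested. Its log2 fold change was -0.20 (SE 0.079, edgeR quasi-likelihood test, unadjusted p = 0.0306). The same-strand pseudogene Gm15971 overlaps Dyrk1a and had 688 counts against 24634. The Benjamini-Hochberg adjusted p of Dyrk1a in edgeR, 0.59, did not pass the threshold of 0.05 used for every gene.

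All 10 Notch genes had a higher mean in heterozygotes, by 1.03-fold to 1.39-fold, and 0 of them passed that threshold. Within the pair of libraries Dll3, Jag1 and Hes6 were lower in the heterozygote. In whole embryonic tissue, a difference in the number of cells of a type and one in RNA per cell cannot be told apart. Of all genes tested 0.0103% passed the threshold with edgeR and 51.2% were higher. With DESeq2 0.17% of the 15858 genes given an adjusted p passed it. At an unadjusted p under 0.05 stood 5 of the 10, namely Hes1, Dll1, Hes5, Mfng and Notch1, all higher, where 7.88% of all genes stood in either direction and 3.27% were higher. By DESeq2 0 of 10 passed and 6 of 10 were at an unadjusted p under 0.05, Hey1 being added. At that level by DESeq2 were 3.82% of 30777 genes. DESeq2 was run without the low-count filter, so this share includes low-count genes and is not on the same set as edgeR's 7.88%. With the replicate number as a block the count was also 5, against 5.72% of all genes, but not of the same genes: Notch1 was then at an unadjusted edgeR p of 0.0516 and Hey1 at 0.0302. The median log2 fold change was 0.25 over the 10 and 0.0048 over all genes tested. The genes were chosen with earlier results of these data known, so these counts are a description. Without wt replicate 1 the count at an unadjusted p under 0.05 was 1 (4.11% of all genes in that fit). It was 2 without heterozygote replicate 2 (8.92% of all genes), heterozygote replicate 3 (4.25%) or wt replicate 2 (6.18%), and 6 without heterozygote replicate 1 (7.98%) or wt replicate 3 (10.5%). Hes1 was at an unadjusted p of 0.00486 to 0.0143 with any library left out.

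**Figure D1:**
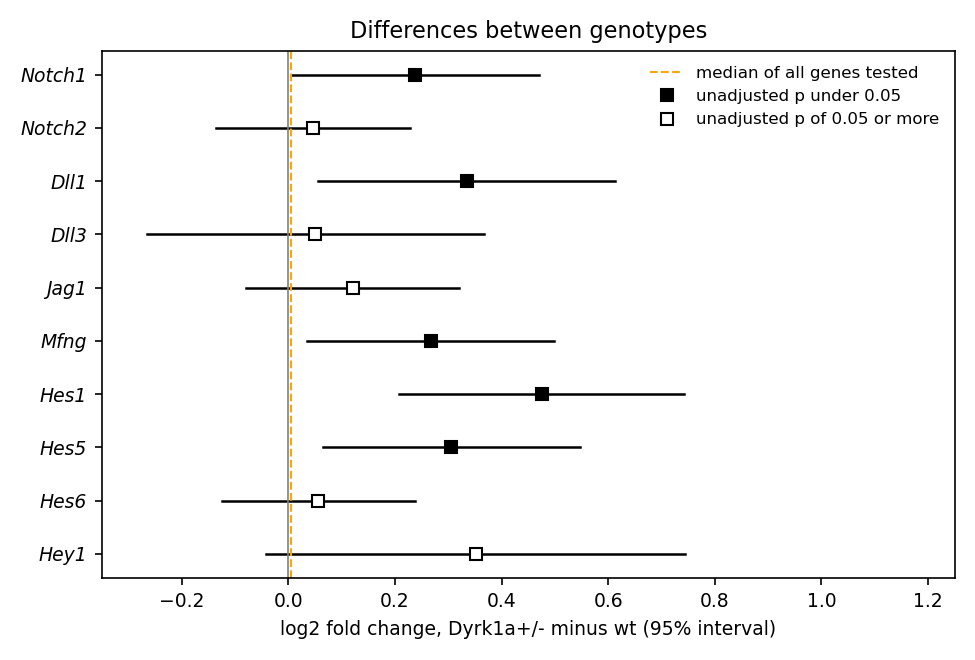
Log2 fold change of each gene (heterozygotes minus wt, x axis) with its 95% interval from edgeR's quasi-likelihood test; filled squares had an unadjusted p under 0.05 and the dashed line is the median of all 19403 genes. Every square lies right of 0, Hes1 is farthest at 0.48, and the intervals of Notch2, Dll3, Jag1, Hes6 and Hey1 include 0.

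The genes spanned a wide range of levels once counts were divided by exon length. Hes6 had the highest value, 38.6 ± 2.33 CPM per kilobase of exon in heterozygotes and 37.1 ± 2.38 in wt (SD, n = 3 each), and Dll3 the lowest, 3.52 ± 0.419 in heterozygotes and 3.39 ± 0.411 in wt. In wt the order ran from Hes6 through Notch2, Notch1, Hes5, Mfng, Dll1, Jag1, Hes1 and Hey1 to Dll3. The wt ranges of these neighbours overlapped between Notch2 and Notch1, Hes5 and Mfng, Mfng and Dll1, Hes1 and Hey1, and Hey1 and Dll3. Hes5 had 18.6 ± 1.61 CPM per kilobase in heterozygotes and 15.1 ± 1.28 in wt (SD, n = 3 each). Hes1 had less, 6.16 ± 0.516 in heterozygotes and 4.43 ± 0.312 in wt. Notch2 stood above Notch1 in 1 of 3 heterozygotes and in 3 of 3 wt libraries.

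**Figure D2:**
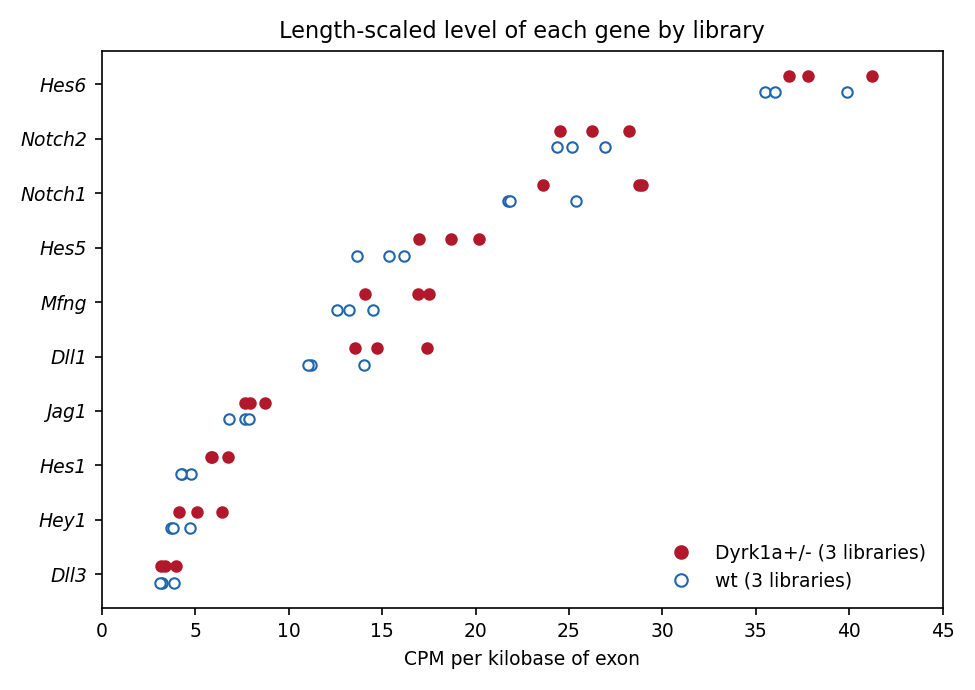
CPM per kilobase of exon (x axis) for each gene in every library, ordered by the wt mean; filled points are heterozygotes and open points wt. Hes6 stands alone at 35.5 or more, the receptors lie between 21.8 and 28.9, and Dll3 lies under 4.

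The receptors bind Delta and Jagged ligands on neighbouring cells. Notch1 (ENSMUSG00000026923, GRCm38 chromosome 2, 26457903 to 26516663) had 336, 412 and 409 CPM in heterozygotes and 310, 311 and 361 CPM in wt. Heterozygote replicates 2 and 3 were above every wt library, and heterozygote replicate 1 lay below wt replicate 3. The log2 fold change was 0.24 (SE 0.102; edgeR, unadjusted p = 0.0465, adjusted p = 0.629), and it was 0.19 in the pair and 0.26 in the other 4 libraries. A transcript on the opposite strand, 0610009E02Rik, overlaps Notch1 and had 366 counts against 52918. Notch2 (ENSMUSG00000027878, chromosome 3, 98013527 to 98150361) had 264, 304 and 283 CPM in heterozygotes and 271, 263 and 290 CPM in wt, so the groups overlapped. Its log2 fold change was 0.05 (SE 0.080; edgeR, adjusted p = 0.939), with a 95% interval of 0.911-fold to 1.17-fold, and it was -0.0064 without heterozygote replicate 2. The log2 difference was 0.07 in the pair and 0.03 in the other 4 libraries. The annotated same-strand transcripts Gm42819 and Gm42820 lie in Notch2 and had 1655 and 764 counts against 41951. Of both receptors' summed CPM per kilobase, Notch1 took 49.1% to 52.3% in heterozygotes and 46.4% to 48.5% in wt, 2 ranges that do not overlap; this share and those below were computed after the values had been seen and carry no test.

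Dll1, the main Delta ligand of forebrain progenitor zones (ENSMUSG00000014773, chromosome 17, 15367354 to 15376872), had 57.2, 62.2 and 73.5 CPM in heterozygotes and 47.2, 46.6 and 59.1 CPM in wt. Wt replicate 3 reached the range of the heterozygotes, and the other 2 wt libraries lay below all of them. The log2 fold change was 0.33 (SE 0.123; edgeR, unadjusted p = 0.0238, adjusted p = 0.571). The log2 difference was 0.07 in the pair, which holds wt replicate 3, and 0.47 in the other 4 libraries; whether these differ was not tested. A930024N18Rik, on the opposite strand, overlaps Dll1 and had 462 counts against 8477. Dll3 (ENSMUSG00000003436, chromosome 7, 28293553 to 28302238) had 9.08, 9.62 and 11.4 CPM in heterozygotes and 9.18, 8.81 and 11 CPM in wt, from 188 to 307 counts per library. Its log2 fold change of 0.05 (SE 0.139; edgeR, adjusted p = 0.966) was smaller than its error, and it was -0.048 without heterozygote replicate 3 and -0.013 without wt replicate 2. The log2 difference was -0.19 in the pair and 0.18 in the other 4 libraries, opposite in sign. Jag1 (ENSMUSG00000027276, chromosome 2, 137081456 to 137116644), a ligand of the other, Serrate-related class, had 46.2, 44.7 and 50.9 CPM in heterozygotes and 44.6, 39.7 and 45.9 CPM in wt, with overlap. Its log2 fold change was 0.12 (SE 0.088; edgeR, adjusted p = 0.787), and the log2 difference was -0.04 in the pair and 0.20 in the other 4 libraries.

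Among the summed CPM per kilobase of the 3 ligands, Dll1 took 56.6% ± 1.49 in heterozygotes and 52.6% ± 1.87 in wt (SD, n = 3 each). Dll3 took 12.9% to 13.2% in heterozygotes and 14.6% to 15% in wt. That spread within a genotype is narrower than the counting error of a single Dll3 value, 5.71% to 7.29% of the value, so it gives no measure of how well the share is known.

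Mfng modifies the sugars on Notch receptors and so changes which ligands they answer. It (ENSMUSG00000018169, chromosome 15, 78755882 to 78773475) had 40.0, 48.1 and 49.7 CPM in heterozygotes and 37.5, 35.8 and 41.2 CPM in wt. Only heterozygote replicate 1 fell within reach of wt, below wt replicate 3. The log2 fold change was 0.27 (SE 0.102; edgeR, unadjusted p = 0.0285, adjusted p = 0.587), and the log2 difference was 0.22 in the pair and 0.28 in the other 4 libraries.

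Hes1 had the largest log2 fold change of the 10 genes. It (ENSMUSG00000022528, chromosome 16, 30064384 to 30067796) had 12.0, 11.9 and 13.8 CPM in heterozygotes and 8.73, 9.76 and 8.60 CPM in wt. All 3 heterozygotes were above all wt libraries, from 240 to 296 counts per library, where counting error alone is 5.81% to 6.45% of a value. The log2 fold change was 0.48 (SE 0.118), or 1.39-fold with a 95% interval of 1.15-fold to 1.67-fold (edgeR, unadjusted p = 0.0031, adjusted p = 0.483; DESeq2, adjusted p = 0.217). It ranked 112th of 19403 genes by p, was 0.47 in the pair and 0.48 in the other 4 libraries, and ran from 0.40 to 0.53 with any 1 library left out.

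Hes5 (ENSMUSG00000048001, chromosome 4, 154960923 to 154962371), whose window with its RBPJ motifs is printed above, had 23.1, 27.5 and 25.5 CPM in heterozygotes and 18.6, 21.0 and 22.1 CPM in wt. The groups did not overlap, though heterozygote replicate 1 and wt replicate 3 were close. The log2 fold change was 0.31 (SE 0.106; edgeR, unadjusted p = 0.0185, adjusted p = 0.547), with 0.32 in the pair and 0.30 in the other 4 libraries. A 2-sided exact permutation test on CPM gave p = 0.1 for Hes1 and for Hes5, and no lower p can be had with 3 libraries a group. These were the 2 genes of the 10 without overlap, where the heterozygotes lay above wt in 6.53% of all genes tested, below it in 7.49% and either in 14%. With fewer libraries overlap is rarer for any gene: the count was 6 without heterozygote replicate 1 (25.2% of all genes), 8 without wt replicate 3 (30.3%) and 8 in the 4 libraries outside the pair (46.3%). It was 3 without heterozygote replicate 2, and 2 without heterozygote replicate 3, wt replicate 1 or wt replicate 2. For these fits the share of all genes was not computed.

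Hey1 (ENSMUSG00000040289, chromosome 3, 8663359 to 8667256), a related repressor that is also an RBPJ target, had 13.4, 16.6 and 21.0 CPM in heterozygotes and 12.0, 12.5 and 15.5 CPM in wt. It was the most variable of the 10, with an SD of log2 CPM of 0.32 among heterozygotes and 0.20 among wt. Its log2 fold change of 0.35 (SE 0.173; edgeR, unadjusted p = 0.0736, adjusted p = 0.683) was 0.17 without heterozygote replicate 3, its highest library, and the log2 difference was 0.10 in the pair and 0.46 in the other 4 libraries. Hes6 (ENSMUSG00000067071, chromosome 1, 91411483 to 91414038) had 66.5, 68.3 and 74.5 CPM in heterozygotes and 64.2, 65.1 and 72.1 CPM in wt, with overlap. Its log2 fold change was 0.06 (SE 0.080; edgeR, adjusted p = 0.917), with a 95% interval of 0.917-fold to 1.18-fold, and the log2 difference was -0.08 in the pair and 0.12 in the other 4 libraries. Of the summed CPM per kilobase of the 4 factors, Hes6 took 54.8% to 57.7% in heterozygotes and 60.0% to 62.1% in wt, and Hes1 took 8.48% to 9.24% in heterozygotes and 6.49% to 7.98% in wt.

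**Figure D3:**
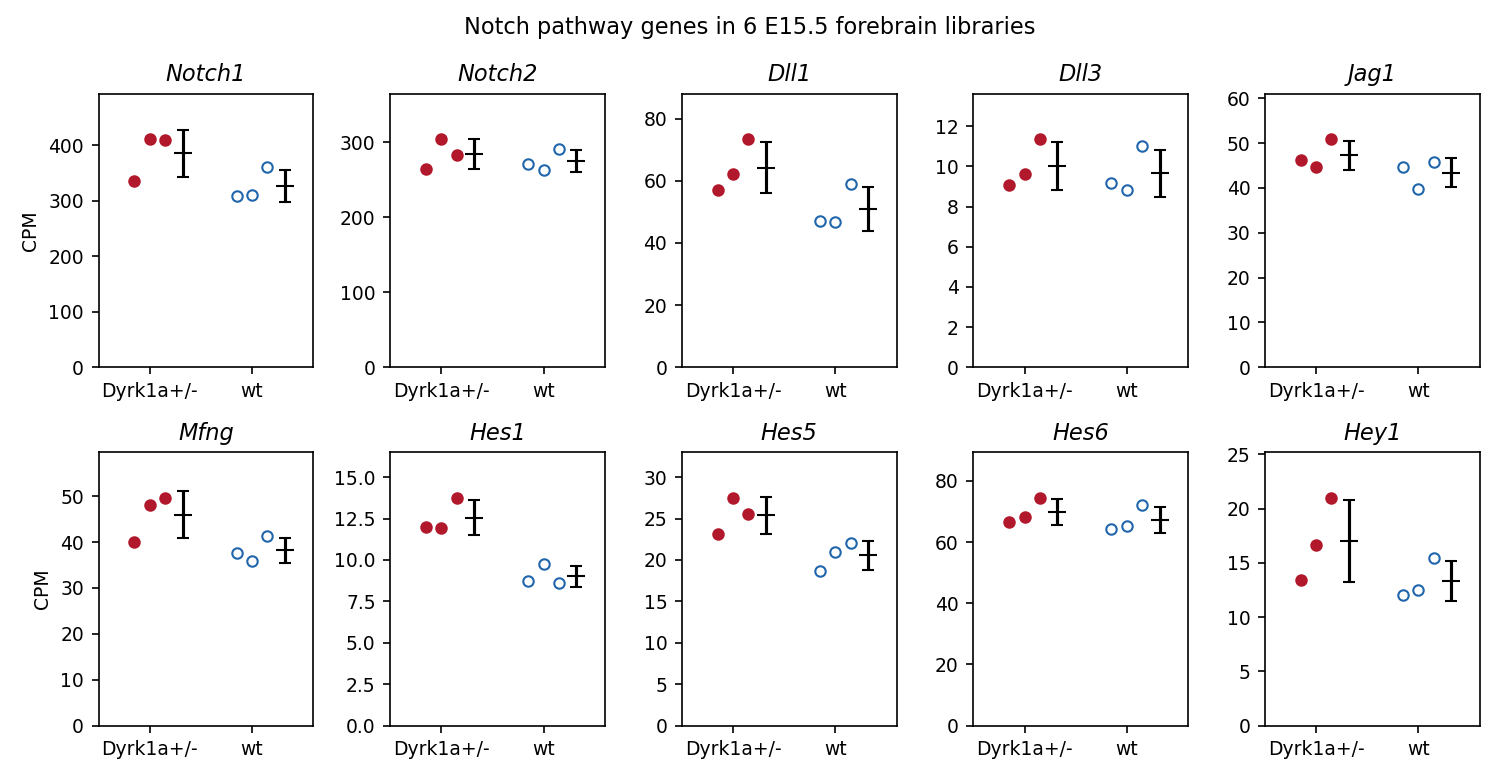
CPM of each gene (y axis, from 0) in the 3 heterozygote libraries (filled, left) and the 3 wt libraries (open, right), with the mean and SD beside them. Hes1 and Hes5 are the genes whose groups do not overlap, and Notch2, Dll3 and Hes6 have nearly level groups.

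Across libraries the genes shared a high and a low end. Heterozygote replicate 3 was the highest library for 7 of the 10 genes and heterozygote replicate 2 for the other 3, while the lowest was wt replicate 1 for 4, wt replicate 2 for 5 and wt replicate 3 for 1. Profiles were compared as the root mean square difference of log2 CPM, after each gene's own mean over the 6 libraries was taken off. Mfng and Notch1 were the closest pair of members, at 0.035; Notch1 was the 4th nearest of 12776 genes to Mfng, and Mfng the 7th nearest to Notch1. Dll1 was the 7th nearest gene to Hey1, at 0.086. Hes1 was close to none of the others, with Hes5 nearest to it at 0.156 and 378th in rank; in the heatmap of deviations wt replicate 3 is low for Hes1 and at or above the mean for 7 others.

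**Figure D4:**
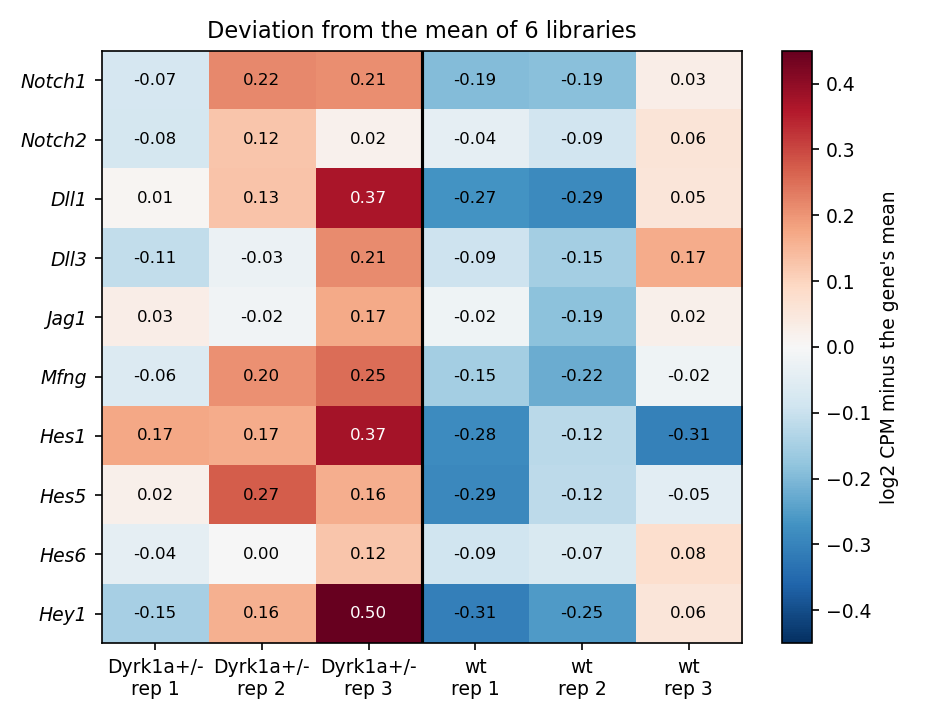
Deviation of log2 CPM from each gene's mean over 6 libraries (color and printed value), heterozygotes left of the line and wt right of it. Heterozygote replicate 3 is above the mean for every gene, and Hes1 differs from most others in wt replicate 3, where it is lowest.

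Over all genes with at least 5 CPM, those nearest to Hes1 in profile were the kinetochore gene Nuf2 (0.043), Pik3r3, a regulatory subunit of phosphoinositide 3-kinase (0.052), and Gm42648 (0.056). Pik3r3 was at 312 ± 14.6 CPM in heterozygotes and 237 ± 14.0 CPM in wt (SD, n = 3 each). Nearest to Hes5 were Actl6a, an actin-related subunit of chromatin remodelling complexes (0.025), the sulfotransferase gene Chst1 (0.028) and the mitotic kinase gene Aurka (0.041). Nearest to Dll1 were 1700052K11Rik (0.036), Pmf1 of the kinetochore (0.050) and the Wnt receptor gene Fzd8 (0.055). These likenesses are a description and hold over 6 libraries grouped by genotype. Depth went with genotype, as every wt library held more counts than every heterozygote library.

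Of 61 further pathway genes 59 were tested. In heterozygotes 35 of them were higher and 24 were lower, and their log2 fold changes had a median of 0.037. By the adjusted p 0 passed edgeR's test. At an unadjusted p under 0.05 were 5 of the 59, 3 higher and 2 lower. Of all genes tested 7.88% were at that level, 3.27% higher and 4.61% lower. By DESeq2 the count was 1, where 3.82% of 30777 genes, taken without the low-count filter, were at that level. Leaving out heterozygote replicate 3 (4.25% of all genes at that level in edgeR) or wt replicate 1 (4.11%) gave 0 such genes. Without wt replicate 2 the count was 1 (6.18%) and without heterozygote replicate 2 it was 3 (8.92%). It was 5 without heterozygote replicate 1 (7.98%) and 8 without wt replicate 3 (10.5%). The RBPJ complex with its corepressors had the highest median of the 7 lists, 0.13, with 15 of 17 genes higher. Its 3 genes at an unadjusted p under 0.05 were the Mastermind coactivator Maml3 (log2 fold change 0.24, SE 0.097), the histone acetyltransferase Kat2b (0.22, SE 0.096) and Snw1 (0.19, SE 0.083), a splicing factor known to join the Notch complex; the adjusted p by edgeR was 0.6 to 0.631. Rbpj itself was at 102, 96.2 and 121 CPM in heterozygotes and 98.6, 98.9 and 84.1 CPM in wt, with overlap (0.18, SE 0.105).

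Of 2 other receptors 1 was higher and 1 lower. Notch3, the form of mural cells and some progenitors, was at 96.1 ± 8.81 CPM in heterozygotes and 88.4 ± 7.18 CPM in wt (SD, n = 3 each; log2 fold change 0.12, SE 0.093), and Notch4, known from endothelium, was at 14.9 ± 3.61 CPM in heterozygotes and 15.6 ± 2.75 CPM in wt (-0.07, SE 0.193). Of 5 other ligands 1 was higher. The neuronal Notch ligand Dner was the one at an unadjusted p under 0.05, with 133, 133 and 129 CPM in heterozygotes and 155, 150 and 138 CPM in wt (log2 fold change -0.17, SE 0.073; edgeR, adjusted p = 0.629). Dll4, the ligand of endothelial tip cells, was at 8.42 ± 2.37 CPM in heterozygotes and 8.59 ± 0.80 CPM in wt. Of 4 glycosyltransferase genes 3 were higher, the fringe gene Lfng by the most (0.16, SE 0.099). Of 12 genes for trafficking and ubiquitin ligases 8 were higher and 0 were at an unadjusted p under 0.05, the lowest p being that of the Notch inhibitor Numb (0.18, SE 0.102; edgeR, unadjusted p = 0.114). Of 9 protease genes 6 were lower; Aph1c (-0.41, SE 0.167) was the one at an unadjusted p under 0.05, is low at 2.65 CPM in heterozygotes and 3.51 CPM in wt, and may share reads with its near copy Aph1b.

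Of 12 other HES, HEY and target genes 10 were tested, 4 higher and 6 lower. Nrarp, a feedback inhibitor that Notch itself induces, was at 38.6, 39.4 and 46.1 CPM in heterozygotes and 30.4, 38.6 and 37.8 CPM in wt, with overlap (log2 fold change 0.22, SE 0.115; edgeR, unadjusted p = 0.0928). Id2, an inhibitor of proneural factors, had the lowest p of this list at -0.24 (SE 0.117; edgeR, unadjusted p = 0.0709). Hes2 and Hes3 had 2 and 3 counts in all libraries together and were not tested.

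**Figure D5:**
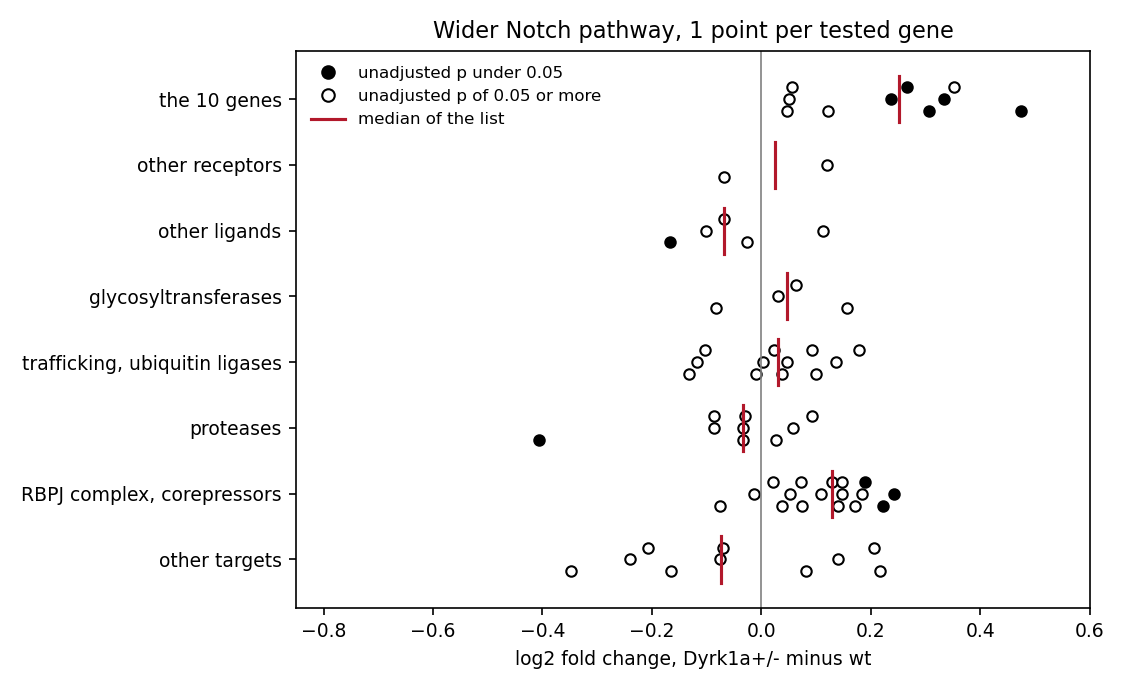
Log2 fold change (heterozygotes minus wt, x axis) of the 10 genes and of 59 further pathway genes by list; each point is a gene, filled points had an unadjusted p under 0.05 in edgeR and red bars are list medians. The 10 genes lie at 0.05 to 0.48 with a median of 0.25, and the RBPJ complex list at a median of 0.13.

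Markers of the cells that carry Notch signalling were compared on the same scale. At an unadjusted edgeR p under 0.05, 3.27% of all genes tested were higher in heterozygotes and 4.61% were lower. Of 12 radial glia genes 5 were higher, 2 of them at such a p, and 7 were lower, 0 of them at such a p. Their summed level overlapped, at 1950 to 2058 CPM in heterozygotes and 1931 to 2028 CPM in wt. Within that list Pax6 had a log2 fold change of 0.29 (SE 0.075; edgeR, adjusted p = 0.483) and Sox2 was at 85.2, 65.8 and 91.3 CPM in heterozygotes and 66.7, 75.3 and 61.5 CPM in wt. The glutamate transporter gene Slc1a3 of the same list lay the other way, at 138, 148 and 120 CPM in heterozygotes and 160, 154 and 151 CPM in wt without overlap (-0.20, SE 0.089; edgeR, adjusted p = 0.647), as did Hopx (-0.17) and Ptprz1 (-0.14) with overlap. Of 12 proliferation genes 12 were higher, 11 of them at an unadjusted p under 0.05, with a summed level of 1313 to 1648 CPM in heterozygotes and 1045 to 1168 CPM in wt. Mki67 in this list was at 278, 325 and 377 CPM in heterozygotes and 207, 232 and 249 CPM in wt. Heterozygote replicate 3 was its highest library, as it was for 7 of the 10 Notch genes, the other 3 being highest in heterozygote replicate 2. The log2 fold change of Mki67 was 0.51 (SE 0.118, edgeR adjusted p = 0.483). By DESeq2 Mki67 (adjusted p = 0.0295), Tpx2 (0.0233) and Cenpf (0.0494) of this list passed the threshold. Of the 15858 genes given an adjusted p by DESeq2, 0.17% did. The part of proliferating cells in the Notch gene values was not tested.

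Of 10 proneural and intermediate progenitor genes 8 were higher, 5 of them at an unadjusted p under 0.05, where 3.27% of all genes tested were. Their sum was 580 to 707 CPM in heterozygotes and 537 to 609 CPM in wt. Neurog2, a proneural factor that induces Dll1, was at 61.3, 58.5 and 75.1 CPM in heterozygotes and 45.8, 55.3 and 50.6 CPM in wt, with no overlap (log2 fold change 0.36, SE 0.112; edgeR, adjusted p = 0.517), and Eomes was at 83.4 ± 6.13 CPM in heterozygotes and 69.9 ± 3.59 CPM in wt (SD, n = 3 each). Of 7 tested ventral progenitor genes 6 were higher and 0 were at an unadjusted p under 0.05, with sums of 190 to 231 CPM in heterozygotes and 190 to 207 CPM in wt. Neuronal genes were lower in 8 of 10 cases, 2 of them at an unadjusted p under 0.05 (4.61% of all genes tested). Their sums were 6006 to 6173 CPM in heterozygotes and 6310 to 6764 CPM in wt.

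Endothelial and mural cells also use Notch1, Dll4, Jag1 and Hey1. Of 10 endothelial genes 3 were higher, with sums of 254 to 285 CPM in heterozygotes and 263 to 294 CPM in wt, and of 8 pericyte genes 0 were higher, with sums of 183 to 217 CPM in heterozygotes and 221 to 240 CPM in wt. Neither list held a gene at an unadjusted p under 0.05, where 4.61% of all genes tested were lower. Meningeal genes were lower in 8 of 10 cases (421 to 468 CPM in heterozygotes and 494 to 581 CPM in wt), 5 of them at such a p. Of the 10, 1 passed edgeR's adjusted threshold, as 0.0103% of all genes did, and 5 lay below wt without overlap, as 7.49% did. Microglial genes were lower in 8 of 10 (69.0 to 85.3 CPM in heterozygotes and 82.5 to 86.6 CPM in wt), 2 of them at such a p. Oligodendrocyte precursor genes were lower in 6 of 7 (133 to 166 CPM in heterozygotes and 191 to 211 CPM in wt), 4 of them at such a p. Choroid plexus sums overlapped, at 311 to 461 CPM in heterozygotes and 388 to 462 CPM in wt, with 0 genes at such a p. Erythroid genes were lower in 7 of 7 cases, 3 of them at such a p, with sums of 499 to 720 CPM in heterozygotes and 740 to 945 CPM in wt. None of the tested markers was at 0 in any library, and the part of these cells in the Notch gene values was not tested.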

How the data were processed

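Bulk RNA was sequenced from 3 heterozygote and 3 wt forebrains; groups and replicate numbers come from the sample titles. The authors deposited a table of raw counts keyed by Ensembl identifier. The submitters' processing notes name HISAT2, HTSeq 0.9.1, SAMtools 1.9, bcl2fastq 2.17.1.14 and the build GRCm38. Which annotation and strand setting were used is not given in the sources at hand, so overlapping genes may share reads. Both polyadenylated RNA and a ribosome-depleted total RNA kit appear in the labels.

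Symbols, positions and merged exon lengths come from GENCODE M21 on GRCm38, which named 32888 of 33084 identifiers. Counts were filtered with filterByExpr, scaled by TMM (factors 0.9944 to 1.0034) and tested in edgeR 4.0.16 (R 4.3.3) by the quasi-likelihood test with genotype as the only term and Benjamini-Hochberg adjustment over all genes; SEs and 95% intervals come from its F statistic. The fit was tested on simulated data. DESeq2 1.42.0, other scaling, filtering and dispersion settings, a replicate block, a term for the library pair, the 4 other libraries and leaving out each library were tried. Exact permutation used scipy 1.17.1. No library was a copy of another (chi-square per degree of freedom 4.80 to 33.1 over library pairs). CPM per kilobase divides CPM by merged exon length, which overstates the length of genes with rare long isoforms.

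The members and lists were chosen with earlier results of these data known. Named are the 10 genes; Dyrk1a; pathway genes at an unadjusted p under 0.05 or the lowest p of their list; Rbpj, Nrarp, Lfng, Dll4 and Notch3; Pax6, Sox2, Neurog2, Eomes and Mki67 (a further marker under this rule is not reported here); and the 3 genes nearest in profile to Hes1, Hes5 and Dll1. Emx1, Hoxb4, Notch4, Slc1a3, Hopx, Ptprz1, Tpx2, Cenpf, Hes2, Hes3 and Aph1b were named outside this rule after their values were seen.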

Additional observations from a re-analysis of the deposited data

How the results depend on the processing

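None of the 10 genes passed edgeR's or DESeq2's adjusted threshold under any alternative run (edgeR count 5 at an unadjusted p under 0.05), and all 10 were higher in each, except that with a library left out the log2 fold change of Notch2 ran from -0.0064 (without heterozygote replicate 2) to 0.095, and that of Dll3 from -0.048 (without heterozygote replicate 3) and -0.013 (without wt replicate 2) to 0.15. Leaving out a library gave 1 to 6 of the 10 at an unadjusted p under 0.05 and 2 to 8 without overlap. Of the wider pathway genes 0 to 8 were then at such a p, as were 4.11% to 10.5% of all genes. The share of all genes without overlap was 25.2% without heterozygote replicate 1 and 30.3% without wt replicate 3. It was not computed with any other library left out. That wider count, 5, was 1 by DESeq2, 2 with the replicate block, 13 with a term for the library pair and 9 in the 4 other libraries, where 8 of the 10 did not overlap; 15.7% and 12.9% of all genes were at an unadjusted p under 0.05 in these last fits, against 7.88%. The cause of these shifts was not tested. Of the same-numbered libraries those numbered 1 deviated together and the others did not (correlations 0.283, -0.448 and -0.243). Heterozygote replicate 1 went as closely with wt replicate 2 (0.284), and the highest value was between heterozygote replicate 2 and wt replicate 3 (0.584). The numbers were therefore not taken as pairs. With the replicate block 5 of the 10 were at an unadjusted p under 0.05, Hey1 in place of Notch1, against 5.72% of all genes. Depth limits Dll3 and Hes1 most, at 188 to 307 and 240 to 296 counts per library; reads are not independent molecules, so counting errors are lower limits.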
